A study of Rattus norvegicus with 6 samples.

Results

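The genes described here encode thioredoxin, peroxiredoxins and other antioxidant proteins known as targets of the transcription factor NRF2. They are 10 genes, Txn1, Txnrd1, Prdx1, Prdx6, Srxn1, Gclc, Gclm, Nqo1, Akr1b8 and Sqstm1, found by symbol among the 17143 genes of the deposited table. All 10 symbols were in the table and all 10 passed the filter on low values. The members were chosen from knowledge of the pathway with measured values in view, namely the differences of some of them between degraded and native matrix. Folds, errors and calls for the members are therefore given as a description of these libraries and not as independent tests.

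Rat-1, an established rat fibroblast line, was grown in serum-containing medium and seeded at 25000 cells per well on extracellular matrix (ECM) for 4 h. In the control group the ECM was native, and in the other groups it had been remodelled by the collagenases MMP1 or MMP13, with 2 libraries in each of the 3 groups. RNA of the adherent cells was measured by 3' end sequencing, so cells that had not attached by that time are absent from all groups. The groups are called native, MMP1 and MMP13 matrix here, and the question was how transcription in fibroblasts differs between them. The cells are a single line, and the labels do not say whether the duplicates were separate cultures, so errors and p-values measure only how these libraries scatter, and that scatter may be technical.

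NRF2 is a transcription factor that the adaptor KEAP1 marks for degradation in unstressed cells. Oxidants and electrophiles modify KEAP1, NRF2 accumulates, and with small MAF proteins it binds antioxidant response elements near genes that restore thiols and detoxify reactive compounds. In fibroblasts, as in most cells, the thioredoxin and glutathione systems are the main thiol reducing systems that draw on NADPH.

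The antioxidant response element core was searched for in RefSeq promoter windows (build GRCr8, 250 bases before to 50 after an annotated start), as TGACNNNGC on either strand. Windows were matched by symbol for 9 of the 10 members, and 3 of these 9 genes had a match. Among all 33469 windows of this length, 12.1% held a match. Among genes tested for expression that had a window, the share was 15.6%. The matching stretches are shown because these are the letters that a CNC-MAF protein pair such as NRF2 with a small MAF is known to bind. All are written 5′ to 3′ along the gene, upstream of the start, with the match in capitals, which reads as the complement strand of the motif.

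Prdx1: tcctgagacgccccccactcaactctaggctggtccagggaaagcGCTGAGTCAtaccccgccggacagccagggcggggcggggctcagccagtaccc

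Gclm: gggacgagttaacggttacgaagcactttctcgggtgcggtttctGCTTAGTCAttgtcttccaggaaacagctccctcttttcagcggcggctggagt

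Txnrd1: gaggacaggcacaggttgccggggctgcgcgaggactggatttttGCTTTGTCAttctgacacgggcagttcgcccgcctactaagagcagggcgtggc

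The Prdx1 stretch lies at chr5:135383726-135383824 on the plus strand, and its match begins 135 bases before the start. That match also holds TGAGTCA, the core bound by AP-1 proteins, so the letters do not tell the factors apart. The Gclm stretch lies at chr2:213031918-213032016 on the plus strand, with the match beginning 172 bases before the start. The Txnrd1 stretch lies at chr7:22755929-22756027 on the minus strand, with the match beginning 78 bases before 1 of its 2 annotated starts. Neither of these holds TGAGTCA. No match in the windows of Txn1, Srxn1, Gclc, Nqo1, Akr1b8 and Sqstm1 says only that the letters are not in those 300 bases.

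Values below are the authors' normalised reads, called units. The libraries held between 161817 and 362122 recovered reads, each read counting for 0.735 to 1.68 units. Fibroblast markers took at least 2.94% of reads in every library, and each of 8 marker lists of other cell types took at most 0.0191%. Of the markers of those types, Epcam, Alas2 and S100b had no read in any library. Reads on Rn45s, the entry for precursor ribosomal RNA, made up 0.320% ± 0.038 of reads on native, 0.80% ± 0.19 on MMP1 and 0.83% ± 0.20 on MMP13 matrix (SD, n = 2 each). It moved in the same direction as the members that were higher. Leukocyte markers, 7 of 8 in the table, took 0.00863% to 0.0114% of reads on native, 0.0163% to 0.0191% on MMP1 and 0.0142% to 0.0149% on MMP13 matrix. Tenocyte markers, 3 of 4 in the table, took 0.0173% to 0.0181%, 0.0142% to 0.0158% and 0.00865% to 0.0141%. Both lists thus separated native from degraded matrix without overlap, the former higher and the latter lower on degraded matrix. The other lists among the 8 did not separate in this way. The leukocyte and tenocyte lists were singled out for this separation and rest on few reads, so no shift in cell types is read from them. The part of Rn45s and of these markers in the members' differences was not tested.

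Together the 10 members were highest on MMP13 matrix. Summed over members, native matrix gave 1363 and 1639 units, MMP1 matrix 1818 and 1826, and MMP13 matrix 2350 and 2092. The libraries of the 3 groups did not overlap in this sum. Members with more reads weigh more in it, and the means of Txn1, Prdx6 and Gclm were not highest on MMP13 matrix. As a share of reads the members took 0.567% ± 0.081 on native, 0.67605% ± 0.00051 on MMP1 and 0.826% ± 0.079 on MMP13 matrix (SD, n = 2 each). In these bulk samples a change in the RNA per cell cannot be told apart from a change in how many of the cells express a gene.

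A call below is a Benjamini-Hochberg adjusted p under 0.05 over all 7284 tested genes in limma. Folds are on the log2(value + 1) scale. On MMP1 matrix 1 of 10 members was called higher than on native, where 0.137% of all tested genes were. On MMP13 matrix 4 of 10 were called higher, where 0.275% of tested genes were. None was called lower in either comparison, where 0.0137% and 0.137% of tested genes were, and no member had a fold below 0 at an unadjusted p under 0.05. EdgeR called no member lower, nor did DESeq2 among the members it gave an adjusted p, which were 10 on MMP1 and 7 on MMP13 matrix. On the latter DESeq2 gave none for Srxn1, Gclc and Gclm. The 2 comparisons share their native libraries, and since the members were picked with these results known, nothing is read from the counts.

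Every library of a member lay above both native libraries in 4 of 10 members on MMP1 matrix and in 7 of 10 on MMP13 matrix. Over all tested genes this held for 19.6% and 18.9%. The members' median log2 fold was 0.07 on MMP1 and 0.64 on MMP13 matrix, beside 0.02 and 0.01 over all tested genes. Between proteases, MMP13 against MMP1, 6 of 10 members lay without overlap higher, beside 15.9% of tested genes, and the median was 0.23. Nqo1 counts in the 7 and in the 6 by less than 1 read is worth. Its lower MMP13 library had 266.2 units, beside 265.6 in the higher native and 265.8 in the higher MMP1 library. Gclm counts in the 6 at 11.8 against 10.8 units, on few reads.

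**Figure D1:**
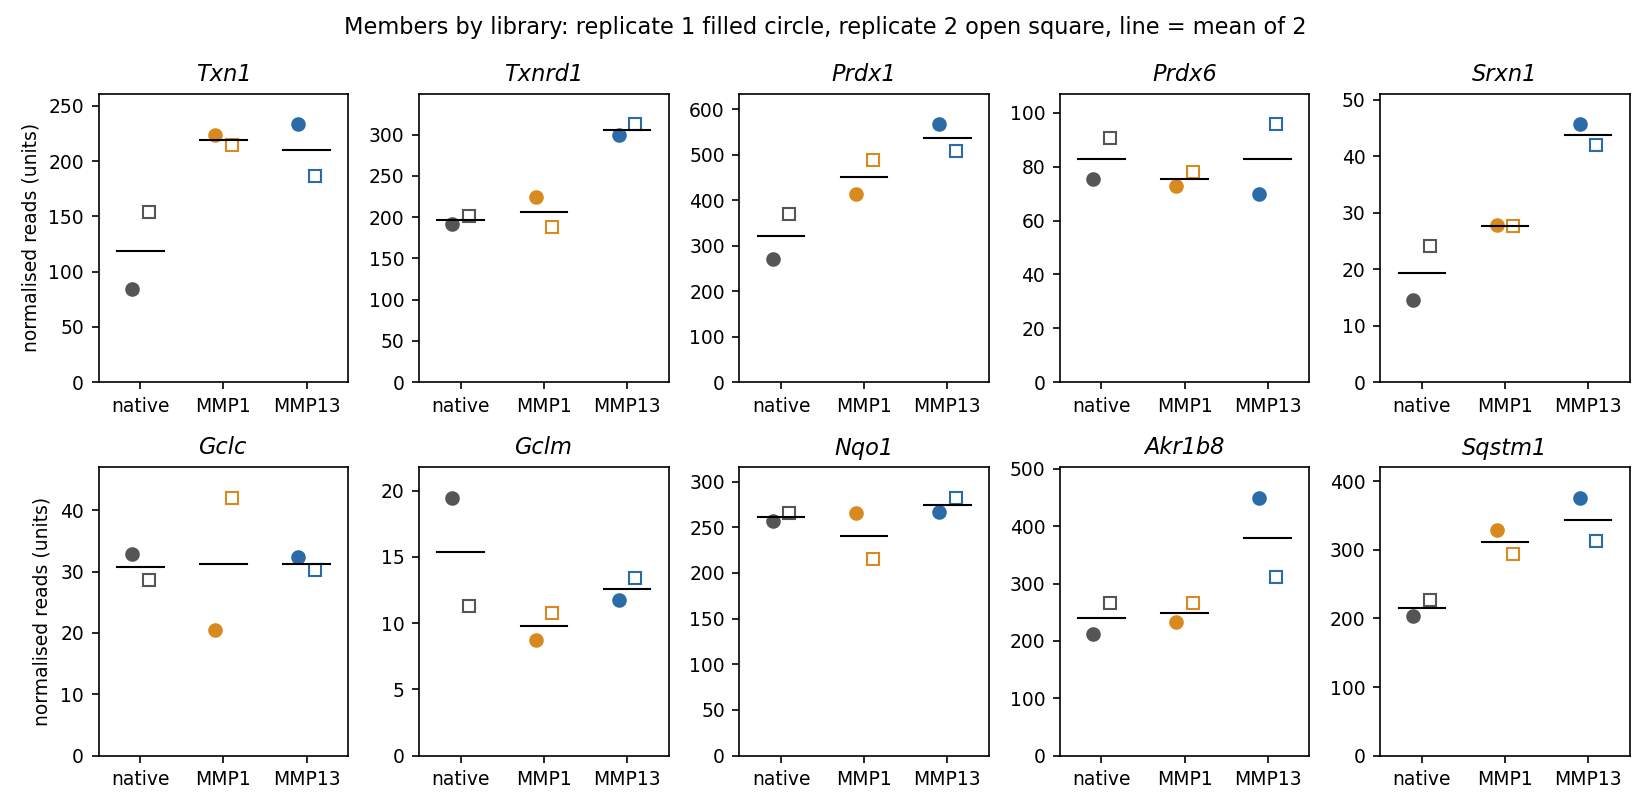
Level of each member in every library, in normalised reads (units) on an axis from 0, with native, MMP1 and MMP13 matrix side by side; circles are replicate 1, squares replicate 2 and the line their mean. Txnrd1 stands high in the 2 MMP13 libraries alone, Txn1 and Sqstm1 in all 4 libraries on degraded matrix, while Nqo1, Gclc and Prdx6 show no such step.

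Of the thioredoxin system, both genes had their MMP13 libraries above native, and Txn1 alone had its MMP1 libraries above native too. Txn1 encodes thioredoxin, the small protein that reduces disulfides in peroxiredoxins and other targets. It was at 83.9 and 154 units on native matrix, 223 and 215 after MMP1 and 233 and 186 after MMP13. Both degraded matrices lay above native without overlap, and they overlapped each other. The log2 fold of Txn1 was 0.94 (SE 0.20) on MMP1 and 0.87 (SE 0.20) on MMP13 matrix, and it was called in both.

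The native libraries of Txn1 stood 1.84-fold apart, more than those of any other member. Its own libraries gave an SE of 0.38, where the fit, which takes the spread from genes of like level, gave 0.20. Without native replicate 1 the log2 fold was 0.51 on MMP1 and 0.43 on MMP13 matrix, and neither was called. The call on MMP1 matrix was also lost without MMP1 replicate 1 (log2 fold 0.91) or 2 (0.97), and that on MMP13 matrix without MMP13 replicate 1 (0.71) or 2 (1.03). EdgeR called Txn1 on both matrices, and DESeq2 called it on neither (adjusted p = 1.0 and 0.26).

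Txnrd1 encodes the cytosolic selenoenzyme that passes electrons from NADPH to thioredoxin. It was measured at 192 and 201 units on native matrix, 225 and 188 on MMP1 matrix, and 299 and 312 on MMP13 matrix. Native and MMP1 libraries overlapped, and both MMP13 libraries lay above all 4 others. The replicates of Txnrd1 were close, with an own SE of 0.11 against 0.18 in the fit. The log2 fold was 0.63 (SE 0.18) on MMP13 matrix, not called by limma (adjusted p = 0.080) but called by edgeR (adjusted p = 0.045) and DESeq2 (adjusted p = 0.028). With each library left out in turn it ran from 0.60 to 0.67. On MMP1 matrix it was 0.07 (95% interval -0.29 to 0.42).

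Of the peroxiredoxin genes, Prdx1 was highest on MMP13 matrix and Prdx6 was not. The sulfiredoxin gene Srxn1 was also highest on MMP13 matrix. Prdx1 encodes a cytosolic peroxidase that thioredoxin recycles. Its libraries read 271 and 371 units on native matrix, 413 and 489 after MMP1 and 566 and 507 after MMP13. The 3 groups stood in the order native, MMP1, MMP13 without overlap. The log2 fold was 0.50 (SE 0.14), not called, on MMP1 and 0.76 (SE 0.14), called, on MMP13 matrix. The MMP13 call held without each library except native replicate 1, where the log2 fold was 0.53. EdgeR and DESeq2 called Prdx1 on MMP13 matrix as well. The Prdx1 own SE was 0.22.

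Srxn1 encodes sulfiredoxin, which repairs peroxiredoxins whose active cysteine has been overoxidised. It had 14.6 and 24.1 units on native matrix, 27.7 and 27.6 after MMP1 and 45.6 and 42.0 after MMP13. Here too the groups were ordered native, MMP1, MMP13 without overlap. On MMP13 matrix its log2 fold of 1.18 (SE 0.42) was the largest among the members, or 2.26-fold in mean units. It was not called, and its libraries held 12 to 62 reads. On MMP1 matrix the log2 fold was 0.53 (SE 0.42).

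Prdx6 encodes a peroxidase with a single catalytic cysteine that relies on glutathione rather than thioredoxin. The libraries read 75.4 and 90.6 units on native matrix, 73.0 and 78.0 after MMP1 and 69.9 and 95.7 after MMP13. All 3 groups overlapped. Log2 folds of Prdx6 were -0.13 (95% interval -0.66 to 0.40) after MMP1 and -0.01 (-0.54 to 0.51) after MMP13.

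Neither subunit gene of glutamate-cysteine ligase, the enzyme of the rate-limiting step of glutathione synthesis, was called. Gclc, the catalytic subunit, had 32.8 and 28.7 units on native matrix, 20.4 and 42.0 after MMP1 and 32.4 and 30.2 after MMP13. The MMP1 libraries of Gclc stood 2.05-fold apart and spanned both other groups. Its log2 fold was -0.06 (95% interval -0.85 to 0.73) on MMP1 and 0.03 (-0.76 to 0.82) on MMP13 matrix, and the first turned to 0.06 in edgeR.

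Gclm, the modifier subunit, read 19.4 and 11.3 units on native matrix, 8.76 and 10.8 after MMP1 and 11.8 and 13.4 after MMP13. Its MMP1 libraries lay below both native libraries, while the MMP13 libraries lay between these. With only 6 to 16 reads per library, its log2 folds of -0.56 (SE 0.60) and -0.23 (SE 0.60) were within the error. The 95% intervals, -1.74 to 0.61 and -1.40 to 0.95, hold changes in both directions, so the fit does not settle the direction for Gclm at this depth.

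Of the reductase genes, Akr1b8 was called on MMP13 matrix and Nqo1 was called on neither. Nqo1 encodes a quinone reductase and is among the most used markers of NRF2 activity. Levels of Nqo1 were 256 and 266 units on native matrix, 266 and 215 after MMP1 and 266 and 282 after MMP13. The MMP13 libraries lay just above both native libraries, and MMP1 replicate 2 stood apart on the low side. The log2 fold of Nqo1 was -0.13 (95% interval -0.46 to 0.21) on MMP1 and 0.07 (-0.27 to 0.41) on MMP13 matrix. Its libraries held 168 to 362 reads.

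Akr1b8 encodes an aldo-keto reductase that reduces reactive aldehydes. Its level was 213 and 266 units on native matrix, 232 and 266 after MMP1 and 449 and 311 after MMP13. Native and MMP1 libraries overlapped, and both MMP13 libraries lay above them, 1.45-fold apart from each other. The log2 fold was 0.65 (SE 0.17, own SE 0.27) on MMP13 matrix, called by limma, edgeR and DESeq2, and 0.07 (SE 0.17) on MMP1 matrix. Without MMP13 replicate 1 it was 0.38 and without native replicate 1 it was 0.49, neither called. The call was also lost without MMP1 replicate 1 or 2, which leave the fold as it is. With all libraries it was lost under TMM scaling (limma adjusted p = 0.056), quantile scaling (0.0503), a pseudocount of 0.5 (0.057), no filter (0.105) and a fit of only the native and MMP13 groups (0.055), at log2 folds of 0.59 to 0.65.

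Sqstm1 encodes p62, an autophagy receptor that also binds KEAP1 and is itself known as an NRF2 target. Libraries read 204 and 227 units on native matrix, 329 and 294 after MMP1 and 376 and 312 after MMP13. All 4 libraries on degraded matrix lay above both native libraries, and the MMP1 and MMP13 libraries overlapped. The log2 fold was 0.53 (SE 0.17), not called, on MMP1 and 0.67 (SE 0.17), called, on MMP13 matrix. EdgeR and DESeq2 called it on MMP13 matrix too. In limma that call held without native replicate 2 and was lost without each of the other 5 libraries, while the log2 fold ran from 0.53 to 0.80. With all libraries it was also lost without a filter (limma adjusted p = 0.0703) and in a fit of only the native and MMP13 groups (0.0553).

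**Figure D2:**
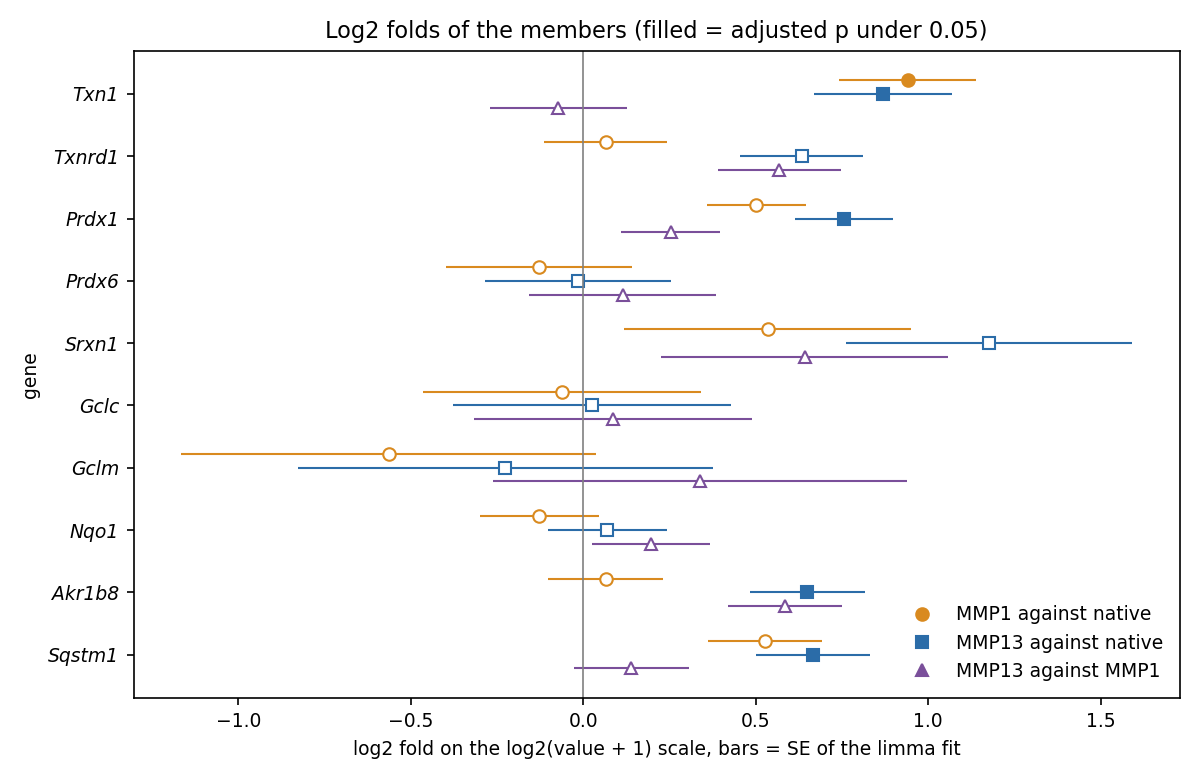
Log2 folds of the 10 members on the log2(value + 1) scale, with the SE of the limma fit as bars; circles are MMP1 against native, squares MMP13 against native and triangles MMP13 against MMP1, filled where the adjusted p was under 0.05. Txn1 and Sqstm1 have like folds on both matrices, Txnrd1 and Akr1b8 lie near 0 on MMP1 matrix and near 0.6 on MMP13 matrix.

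The direct comparison of MMP13 with MMP1 matrix called 0 of 10 members higher and 0 lower by limma, where 0.0412% and 0% of tested genes were called. EdgeR and DESeq2 called 0 members as well, where they called only 2 of 4574 and 1 of 14735 genes higher and 0 lower. At an unadjusted p under 0.05, 2 of 10 members had a difference, both higher on MMP13 matrix, beside 5.22% of all tested genes. These were Akr1b8, with a log2 difference of 0.59 (SE 0.17, limma adjusted p = 0.34), and Txnrd1, with 0.57 (SE 0.18, limma adjusted p = 0.51). For both, the 2 MMP13 libraries lay above the 2 MMP1 libraries. The difference was 0.64 (95% interval -0.17 to 1.46) for Srxn1, 0.25 (-0.03 to 0.53) for Prdx1, 0.14 (-0.18 to 0.46) for Sqstm1 and -0.07 (-0.46 to 0.32) for Txn1. These intervals rest on the SE of the fit. The own SE was larger for Prdx1 (0.22 against 0.14) and Txn1 (0.38 against 0.20), and smaller for Srxn1 and Sqstm1. An effect of 1 protease that the other lacks was therefore not shown for any member.

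With 2 libraries against 2, an exact permutation test of a single gene cannot give a two-sided p under 0.33, so no gene was tested on its own libraries alone. The fit took each gene's spread wholly from the trend over genes of like level. For 4 of the 10 members, Txn1, Prdx1, Akr1b8 and Gclc, their own libraries scattered more than that trend. Limma without the trend called 0 of all 7284 tested genes in any comparison, members included.

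Native replicate 1 was the lower native library in 8 of 10 members, all but Gclc and Gclm. Over all tested genes that library was the lower one in 48.8%. In the MMP1 and MMP13 groups replicate 1 was the lower library in 5 and 4 of 10 members. Without native replicate 1 no member was called on either matrix, while the genes called higher over the whole table went from 10 to 3 on MMP1 and from 20 to 6 on MMP13 matrix. Without native replicate 2 the members called numbered 2 on MMP1 and 4 on MMP13 matrix, of 15 and 30 genes called higher. Leaving out native replicate 1 thus lowered the number of calls over all genes and over the members. Leaving out native replicate 2 raised it over all genes on both matrices, but over the members on MMP1 matrix alone.

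**Figure D3:**
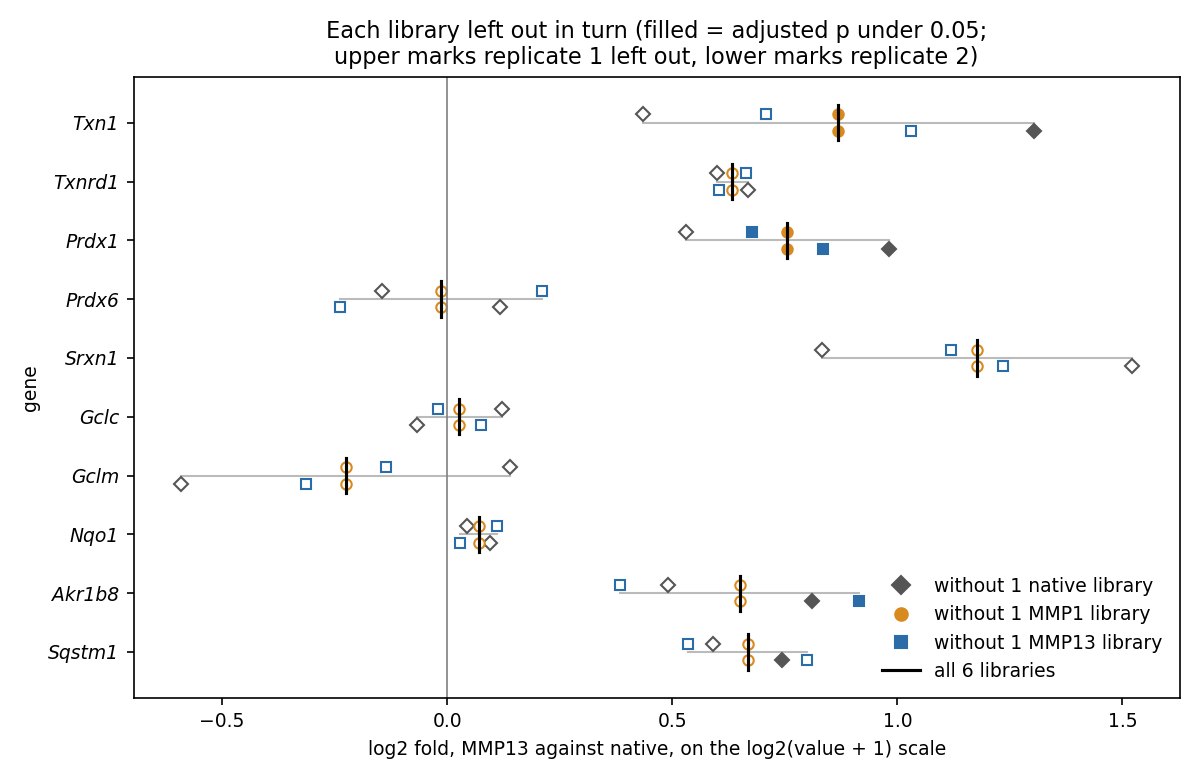
Log2 fold of each member, MMP13 against native, with all 6 libraries (black line) and with 1 library left out (marks, filled where the adjusted p was under 0.05). Leaving out native replicate 1 moves Txn1 from 0.87 to 0.43 and leaving out native replicate 2 moves it to 1.30, while Txnrd1 stays between 0.60 and 0.67.

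In Prdx1, the member with the most reads, levels over the 6 libraries went with those of Txn1 (Pearson r = 0.90), Sqstm1 (0.90), Akr1b8 (0.80) and Txnrd1 (0.67). For Prdx6 and Nqo1 the r was 0.01 and -0.02. Of 1066 genes with a mean of at least 50 units, the closest to Prdx1 were Rhox5 (0.98), Emp3 (0.97), Rpl13a (0.96), Anxa2 (0.96) and Cox7b (0.96). Among these genes Txn1 ranked 40, Sqstm1 45, Akr1b8 111 and Txnrd1 190, so many genes outside the members followed Prdx1 more closely. Srxn1, Gclc and Gclm had lower means and were left out. These values describe 6 libraries that share 3 groups and a depth per library, and are given with no p.

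Among 93 other genes of the pathway, set out in 8 lists, 76 were tested. Of these, 1 was called higher on MMP1 and 2 on MMP13 matrix, and none was called lower. Their median log2 fold was 0.12 and 0.08, beside 0.02 and 0.01 over all tested genes. EdgeR tested 68 of the 93 genes, and DESeq2 gave an adjusted p for 90 on MMP1 but only 22 on MMP13 matrix, and each called the same number as limma. Counts at an unadjusted p under 0.05 below come from limma, and over all tested genes that share was 8.24% on MMP1 and 8.05% on MMP13 matrix. Both called genes were in the list of haem and iron genes, and both were already known to differ when the lists were written. Of 7 genes in that list 5 were tested, with median log2 folds of 0.26 on MMP1 and 0.25 on MMP13 matrix. Among the 5, 2 and 3 had an unadjusted p under 0.05, and the rest of the list was not called.

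Hmox1, the haem oxygenase, had 129 and 167 units on native matrix, 355 and 301 after MMP1 and 835 and 749 after MMP13. The groups did not overlap, and the log2 fold was 1.15 (SE 0.16) and 2.42 (SE 0.16). Its difference between the proteases was 1.27 (SE 0.16, limma adjusted p = 2.5e-12), a difference not called for any member. Ftl1, the ferritin light chain, had 96.0 and 89.8 units on native matrix, 139 and 137 after MMP1 and 193 and 171 after MMP13, and was called on the latter (log2 fold 0.96, SE 0.22).

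Other genes of the thioredoxin fold and peroxiredoxin families had a median log2 fold of -0.02 on MMP1 and -0.04 on MMP13 matrix over 13 tested genes. None was called by limma, nor by edgeR among 12 or by DESeq2 among the 18 and 4 with an adjusted p on MMP1 and MMP13 matrix, and 2 and 1 had an unadjusted p under 0.05. Txnl1, a thioredoxin-like protein of the proteasome, read 23.1 and 29.4 units on native matrix, 45.3 and 49.2 after MMP1 and 66.2 and 52.1 after MMP13. Its log2 fold on MMP13 matrix was 1.14 (SE 0.35, limma adjusted p = 0.14). The mitochondrial peroxiredoxin Prdx3 had a log2 fold of -0.97 (SE 0.37) on MMP1 and -0.21 (SE 0.37) on MMP13 matrix.

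Glutathione genes gave 0 calls among 17 tested by limma, with 4 and 3 at an unadjusted p under 0.05. EdgeR gave 0 among 15, and DESeq2 0 among the 20 and 5 with an adjusted p on MMP1 and MMP13 matrix. The glutathione transferase Gstp1 went from 806 and 770 units on native to 605 and 603 on MMP1 and 717 and 730 on MMP13 matrix. It lay below native without overlap on both matrices, with log2 folds of -0.38 (SE 0.12, limma adjusted p = 0.17) and -0.12 (SE 0.12). Ggt1, which splits glutathione outside the cell, had log2 folds of 1.80 (SE 0.57) and 1.23 (SE 0.57) from native levels of 7.29 and 5.28 units, not called.

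The regulators of the pathway gave 0 calls among 7 tested by limma and by edgeR, and 0 at an unadjusted p under 0.05. DESeq2 gave 0 among 8 on MMP1 matrix and gave an adjusted p for only 1 on MMP13 matrix. For Nfe2l2, which encodes NRF2, the log2 fold was -0.14 (SE 0.32) on MMP1 and -0.16 (SE 0.32) on MMP13 matrix. For Keap1 it was 0.25 (SE 0.65) and 0.31 (SE 0.65). These 2 genes were chosen for mention after their values were seen. The KEAP1-associated ligase genes Cul3 (0.65 and 0.67, SE 0.48) and Rbx1 (0.05 and -0.26, SE 0.23) were not called. NRF2 is controlled mainly by protein stability, which RNA does not measure.

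In the 4 remaining lists no gene was called by limma, nor by edgeR or DESeq2 among those they tested. With an adjusted p on MMP13 matrix, DESeq2 had 5 autophagy, 1 NADPH supply, 2 detoxifying and 1 superoxide or peroxide removing gene, where edgeR had 14, 5, 7 and 3. Autophagy genes, among which p62 works, had a median log2 fold of 0.00 and -0.10 over 16 tested, with 1 and 4 at an unadjusted p under 0.05. The autophagy receptor Nbr1 had log2 folds of -0.65 and -0.39 (SE 0.25), and the ubiquitin-like Gabarap -0.27 and -0.45 (SE 0.18). The 4 on MMP13 matrix went both ways. Gabarap and Lamp2 (-0.70, SE 0.34) were lower, and Gabarapl1 (0.86, SE 0.37) and Ctsd (0.47, SE 0.23) higher. NADPH supply genes had medians of -0.04 and 0.41 over 5 tested, with 0 and 1 at an unadjusted p under 0.05. There the transaldolase gene Taldo1 had 0.23 and 0.65 (SE 0.26) and the malic enzyme gene Me1 -0.11 and 0.54 (SE 0.44).

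Detoxifying enzymes had medians of 0.29 and 0.09 over 10 tested, with 0 and 1 at an unadjusted p under 0.05. The aldose reductase Akr1b1, of the same family as Akr1b8, had log2 folds of 0.29 and 0.48 (SE 0.21), and Ugt1a6 of 0.70 and 0.24 (SE 0.40). Superoxide and peroxide removing enzymes had medians of 0.42 and 0.16 over 3 tested, with 1 at an unadjusted p under 0.05 in each comparison. Sod1, the cytosolic superoxide dismutase, had log2 folds of 0.42 and 0.61 (SE 0.22), and catalase, Cat, of -0.67 and 0.16 (SE 0.31).

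**Figure D4:**
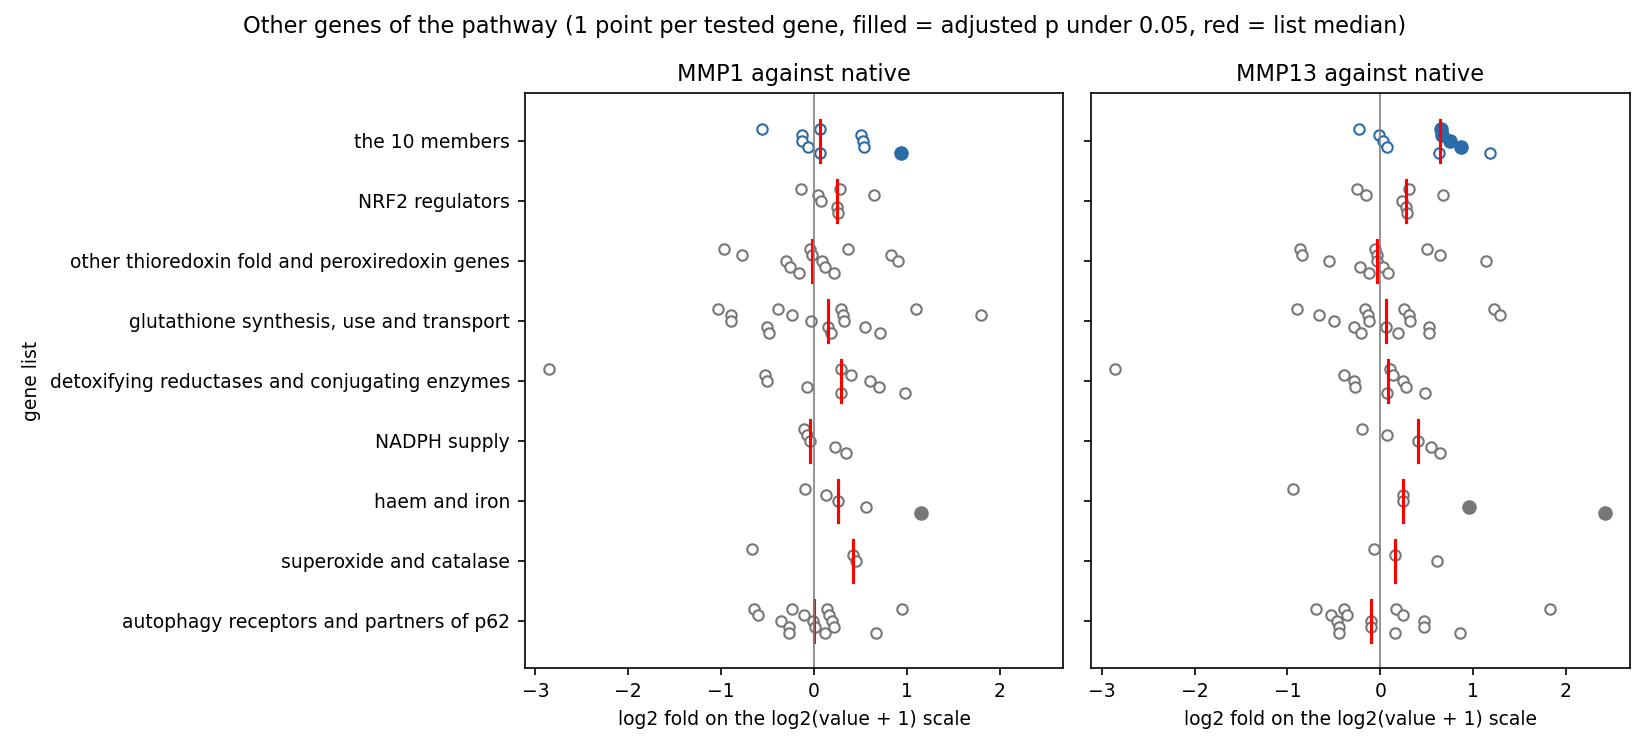
Log2 folds on the log2(value + 1) scale of the 10 members and of the tested genes in 8 lists of other pathway genes, MMP1 against native (left) and MMP13 against native (right), 1 point per gene, filled where the adjusted p was under 0.05, with list medians in red. The filled points outside the members are Hmox1 on both sides and Ftl1 on the right.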

How the data were processed

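One deposited table held 17143 genes and 6 libraries. TopHat, bcl2fastq and DESeq, with build rn5, are named in the submitters' processing notes. How reads were counted, on which annotation and strand, and whether the UMIs of 8 nucleotides were collapsed is not given in the sources used here. What the authors deposited is a normalised signal, each count being scaled by a factor of its library. Dividing by what 1 read is worth returned whole reads for 100% of values, within 0.01 reads. Without collapsed UMIs, these would not be independent molecules. Levels are not compared between genes.

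Genes with at least 5 units in at least 2 libraries (7284) were fitted with limma 3.58.1 in R 4.3.3 on log2(value + 1), eBayes with trend, 1 coefficient per group, all 6 libraries, and adjusted over all genes. Prior degrees of freedom were infinite, so each test used 21852 degrees of freedom. On recovered reads, edgeR 4.0.16 (quasi-likelihood) tested 4574 genes and DESeq2 1.42.0 adjusted over 737 genes for MMP13 against native, leaving lower genes without an adjusted p, and over 14735 in the other comparisons. The main limma fit was tested on simulated counts, with known folds set in genes of high level for MMP13 against native. Those counts were drawn with the same spread setting for all genes. Genes of low level, or that scatter more than the trend, were thus not covered. EdgeR, DESeq2 and the alternatives were not tested in that way. Other alternatives were the pseudocount, the filter, scaling, the spread estimate, the groups fitted, a replicate block and leaving out each library.

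The members and lists were chosen with earlier results of these data known. Named were all members, list genes called in any comparison or otherwise the 2 with the smallest p against native, and Hmox1. Nfe2l2, Keap1, Lamp2, Gabarapl1 and Ctsd were named outside this rule. Promoter windows are from RefSeq, GRCr8. Replicate numbers were not used as pairs in the main fit. Deviations of same-numbered libraries correlated with r of 0.006, -0.072 and -0.045 over 7284 genes. Many of these genes had few reads, where counting noise can hide a shared culture or batch, so pairing is not excluded.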

Additional observations from a re-analysis of the deposited data

Results flagged for a closer look

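Hmox1 differed between the proteases in the test of that difference itself, with a log2 difference of 1.27 (SE 0.16, limma adjusted p = 2.5e-12) for MMP13 against MMP1 matrix, both MMP13 libraries lying above both MMP1 libraries. The Hmox1 level was 328 ± 37.9 units on MMP1 and 792 ± 60.7 units on MMP13 matrix (SD, n = 2 each). Its own libraries gave an SE of 0.19, where the fit gave 0.16. Limma without the trend called 0 genes in this comparison, Hmox1 included. Hmox1 was among the genes already known to differ when the lists were written.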

How the results depend on the processing

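The count of members called higher on MMP1 matrix was 1. It became 2 with quantile scaling, where Prdx1 joined Txn1. It was 0 in limma without the trend and in DESeq2, which called 0 of 7284 and 1 of 14735 genes higher. With each library left out it ran from 0 to 2. On MMP13 matrix the count was 4. It became 2 without a filter and 2 with only the groups compared in the fit, Prdx1 and Txn1 in both, and 3 with a pseudocount of 0.5, TMM or quantile scaling, each losing Akr1b8. It was 5 in edgeR, which added Txnrd1 and called 26 of 4574 genes higher. In DESeq2, which called 23 of the 737 genes with an adjusted p higher, the count was 4 of 7 members, with Txnrd1 in place of Txn1. It was 0 in limma without the trend, which called 0 of 7284 genes, and with each library left out it ran from 0 to 4. Between proteases it was 0 throughout. With a replicate block the counts were 1, 4 and 0, so the block changed none of them. The cause of these shifts was not tested. The counts of members lying higher without overlap, 4 and 7 against native and 6 between proteases, stayed so under TMM scaling and were 4, 6 and 5 under quantile scaling, alternatives chosen after seeing the data.

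Of 540 recomputed log2 folds (30 results, 18 alternatives), 484 kept their direction and their side of the threshold, 3 kept their direction but had no adjusted p (Srxn1, Gclc and Gclm in DESeq2, MMP13 against native), 30 lost a call, 4 gained 1 and 19 turned sign. None of those that turned was called. In edgeR and DESeq2 the log2 fold of Gclc was 0.056 and 0.035 on MMP1 matrix, and -0.0037 and -0.00014 between proteases. With each library left out, on MMP1 matrix Txnrd1 ran from -0.062 to 0.19, Prdx6 from -0.26 to 0.0022, Gclc from -0.56 to 0.44, Nqo1 from -0.28 to 0.026 and Akr1b8 from -0.094 to 0.22. On MMP13 matrix Prdx6 ran from -0.24 to 0.21, Gclc from -0.067 to 0.12 and Gclm from -0.59 to 0.14. Between proteases Txn1 ran from -0.23 to 0.089, Prdx6 from -0.11 to 0.34 and Gclc from -0.41 to 0.59. Depth limits Gclm, Gclc and Srxn1 most, with 6 to 62 reads per library.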
